A study of Mus musculus with 2 samples.

Results

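The cells described here are regulatory T cells of mouse skin that carry Foxp3, found among CD45+ immune cells sorted from digested full-thickness skin. A cell was chosen when its library held at least 1 UMI (unique molecular identifier, 1 captured RNA molecule) of Foxp3, at least 1 UMI of the T cell receptor complex genes Cd3e, Cd3d and Cd3g together, and no UMI of Trdv4 or Tcrg-V5, the variable genes of epidermal gamma-delta T cells. The cells were thus chosen by their measured UMIs of Foxp3, the Cd3 genes, Trdv4 and Tcrg-V5, and the levels of those genes are given as descriptions. The rule was met by 66 of 12558 kept cells, those with 200 genes or more and no more than 10% of UMIs from mitochondria, 39 in DPCP skin and 27 in control skin. DPCP, diphenylcyclopropenone, is a contact sensitizer, and the groups were skin taken 2 days after DPCP challenge and control skin of day 0. Each condition was marked with 1 multiplexing tag and both were read as 1 pooled library. Strain, sex and age, and the number of animals behind each tag, are not given in the sources used here.

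Foxp3 encodes the transcription factor that defines the regulatory T cell lineage, which restrains other immune cells. These cells depend on interleukin 2, which they bind through a receptor whose alpha chain is CD25, encoded by Il2ra, and they carry the inhibitory receptor CTLA-4. In skin they reside largely around hair follicles and are known for limiting contact hypersensitivity and for their part in the hair growth cycle and wound repair. Foxp3 lies on chromosome X at 7573644 to 7595245 on the plus strand of mm10, in the GENCODE M21 annotation, and is a protein-coding gene. Since each condition was 1 tagged sample and cells are not replicates, no test between conditions was made. All intervals are at 95% and reflect only the error of counting UMIs or cells.

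Foxp3 cells made up 0.514% of kept cells in DPCP skin (39 of 7588, exact binomial interval 0.366% to 0.702%) and 0.543% in control skin (27 of 4970, 0.358% to 0.789%). These shares depend on the other cells present. Neutrophils filled much of the DPCP sample, where 65.9% of kept cells held 20 or more UMIs of S100a8 and S100a9 in sum, a pair of genes abundant in neutrophils, against 2.96% in control skin. Among cells with fewer than 20 such UMIs, the Foxp3 share was 1.20% in DPCP skin (31 of 2584, 0.816% to 1.70%) and 0.539% in control skin (26 of 4823, 0.352% to 0.789%). Set against alpha-beta T cells without a Foxp3 UMI, Foxp3 cells were 19.0% in DPCP skin (39 of 205, 13.9% to 25.1%) and 14.0% in control skin (27 of 193, 9.43% to 19.7%). With at least 3 UMIs of Cd3 genes and 3 of the receptor constant genes Trac, Trbc1 and Trbc2 asked of both kinds of cell, the share was 33.0% in DPCP skin (30 of 91, 23.5% to 43.6%) and 25.0% in control skin (22 of 88, 16.4% to 35.4%). Both pairs of intervals overlapped. A wider base was all kept cells with a Cd3 UMI and no Trdv4 or Tcrg-V5 UMI. Of these, Foxp3 cells were 2.76% in DPCP skin (39 of 1414, 1.97% to 3.75%) and 2.89% in control skin (27 of 934, 1.91% to 4.18%). The alpha-beta T cells were the cells with a Cd3 UMI, a Trac, Trbc1 or Trbc2 UMI, and no UMI of Foxp3, Trdc, Trdv4 or Tcrg-V5, 166 in each condition.

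The Foxp3 cells of DPCP skin held 488885 UMIs in all, with 3713 UMIs in the shallowest cell, a median of 8925 and 39949 in the deepest. Those of control skin held 240685 UMIs, with 2501 in the shallowest cell, a median of 6954 and 39297 in the deepest. Some of these cells held many UMIs of neutrophil genes. Of the Foxp3 cells, 20.5% in DPCP skin (8 of 39, 9.30% to 36.5%) and 3.70% in control skin (1 of 27, 0.0937% to 19.0%) had 20 or more UMIs of S100a8 and S100a9, so values are also given without these cells. A DPCP cell with 1000 such UMIs had 1 Foxp3 UMI, 1 Cd3 UMI and 0 of Trac, Trbc1 and Trbc2, as did one with 120. Whether such cells are T cells with neutrophil RNA or neutrophils with stray Foxp3 and Cd3 UMIs was not tested. The 8 neutrophil markers summed to 4696 CPM in DPCP and 644 CPM in control Foxp3 cells, where CPM is the UMIs of a gene over all UMIs of the summed cells, scaled to 1000000. In the cells with fewer than 20 S100a8 and S100a9 UMIs they summed to 865 and 626 CPM. The 7 dendritic cell markers ran the other way, at 2786 CPM in DPCP and 10117 CPM in control cells, as did the 8 macrophage and monocyte markers, at 1589 and 3673 CPM. Markers of B cells summed to 10.2 CPM in DPCP and 8.31 CPM in control cells, of natural killer cells to 18.4 and 0 CPM, and of keratinocytes to 6.14 and 4.15 CPM. In the Foxp3 cells of both conditions Fcgr1, Flt3, Xcr1, Cd79a and Ms4a1 were at 0. Other genes of the macrophage and dendritic cell lists made up the sums above. More than 50 UMIs of the antigen-presentation genes H2-Aa, H2-Ab1, H2-Eb1 and Cd74 were held by 2 DPCP and 8 control cells, and more than 50 of the myeloid gene Lyz2 by 4 and 3. Of the tag UMIs of a cell, the tag of its own condition gave a median of 81.1% in DPCP cells, with a range of 58.5% to 96.2%, and 95.7% in control cells, with a range of 88.4% to 98.9%. No barcode sequence occurred in both conditions.

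The label held up against markers that the rule did not use. Of the genes Il2ra, Ctla4, Ikzf2 and Tnfrsf4, at least 2 were detected in 35 of 39 DPCP cells and 25 of 27 control cells. All 4 were found in 28 DPCP cells and 8 control cells, and none in 3 and 1. A Trac, Trbc1 or Trbc2 UMI was present in 34 DPCP and 26 control cells, and a UMI of Trdc, the gamma-delta receptor constant gene, in 3 and 2. Cd4, the co-receptor of most regulatory T cells, was detected in 24 DPCP and 11 control cells, and Cd8a or Cd8b1 in 7 and 2. Background Foxp3 was low in cells that should lack it. A Foxp3 UMI was found in 6 of 4099 DPCP and 1 of 118 control cells of a neutrophil set without Cd3 UMIs (median depths 3994 and 3519 UMIs), in 1 of 254 and 2 of 445 of a macrophage set, and in 1 of 229 and 0 of 173 epidermal gamma-delta T cells. For the last of these, 0 cells allow a share of up to 2.11%.

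Cells at the edge of the rule had a lower Ikzf2 level than the rest. Just inside it, 10 DPCP and 8 control cells had exactly 1 Foxp3 UMI, and Ikzf2 stood at 1723 CPM in these DPCP cells and 1420 CPM in these control cells. In the 29 DPCP and 19 control cells with 2 or more Foxp3 UMIs, Ikzf2 stood at 3928 and 2704 CPM. Il2ra, Ctla4 and Tnfrsf4 were also lower at the edge in both conditions, though Tnfrsf4 only at 135 against 145 CPM in control skin. Icos was lower there in DPCP skin (568 against 1120 CPM) and higher in control skin (747 against 553 CPM). The control edge cells were deeper, with a median of 9709 against 5896 UMIs. Just outside the rule, 13 DPCP and 15 control cells had a Foxp3 UMI but none of the Cd3 genes. Each of those cells had 1 Foxp3 UMI, and Il2ra was detected in 0 and 2 of them. The lack of a Foxp3 UMI does not show that a T cell is not regulatory. Ctla4, Ikzf2 and Il2ra occurred together in 10 of 166 DPCP and 3 of 166 control alpha-beta T cells without Foxp3, against 30 of 39 DPCP and 14 of 27 control Foxp3 cells.

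Foxp3 itself was at a similar level in both conditions, given as a description since every cell was chosen for a Foxp3 UMI. It ranged over 1 to 17 UMIs per cell in DPCP skin and 1 to 12 in control skin, with a median of 3 in each. The summed level was 376 CPM (324 to 435) in DPCP cells and 366 CPM (293 to 450) in control cells, a ratio of 1.03 (0.794 to 1.34). Ikzf2, at 69531214 to 69687245 on the minus strand of chromosome 1, encodes Helios, a transcription factor of stable regulatory T cells, and was the most abundant of these markers. It had 0 to 137 UMIs per cell with a median of 33 in DPCP cells, and 0 to 60 with a median of 15 in control cells. The Ikzf2 level was 3467 CPM in DPCP cells and 2269 CPM in control cells, a ratio of 1.53 (1.39 to 1.69) that stayed under 2-fold.

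**Figure D1:**
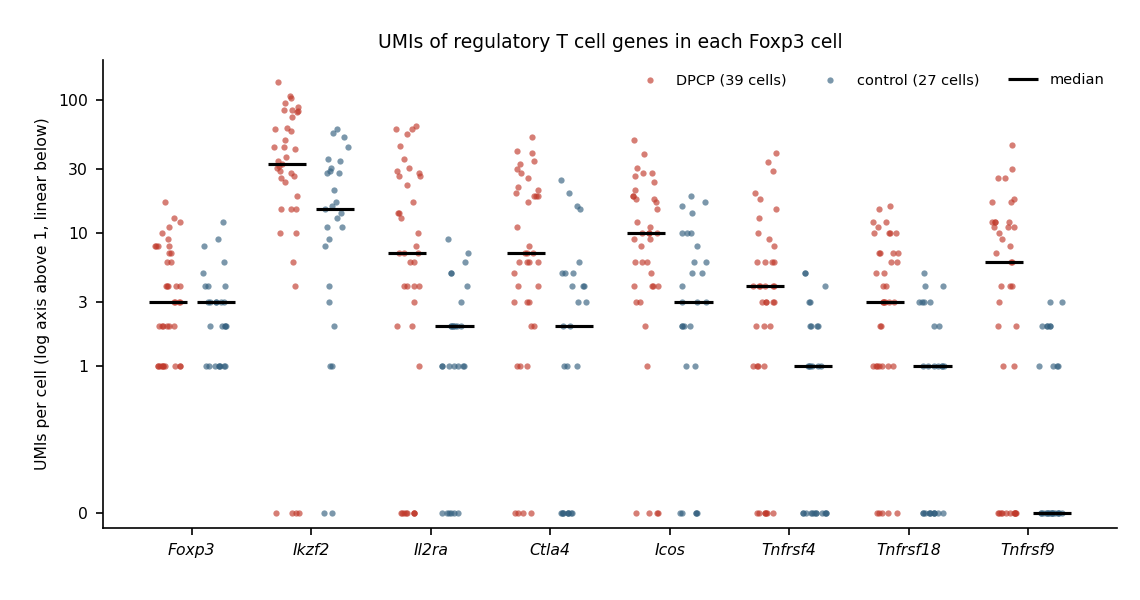
UMIs per cell (vertical axis, logarithmic above 1) of 8 regulatory T cell genes in the 39 DPCP and 27 control Foxp3 cells, 1 point per cell, with the median as a bar. Foxp3 has a median of 3 UMIs in both conditions, while the medians of Il2ra are 7 in DPCP and 2 in control cells and those of Tnfrsf9 are 6 and 0.

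The surface receptors of activated regulatory T cells were higher in DPCP skin. Il2ra had 0 to 64 UMIs per cell with a median of 7 in DPCP cells, and 0 to 9 with a median of 2 in control cells. The gene lies on chromosome 2 at 11642807 to 11693193, plus strand. The distributions overlapped, since 8 DPCP and 6 control cells had none. Il2ra stood at 1268 CPM (1170 to 1372) in DPCP cells and 249 CPM (190 to 321) in control cells, 5.09-fold higher (3.90 to 6.75). Leaving out the cells rich in S100a8 and S100a9 gave a ratio of 5.01 (3.83 to 6.67). Il2ra was also higher in alpha-beta T cells without Foxp3, at 137 CPM in DPCP and 38.9 CPM in control skin, a ratio of 3.52 (2.72 to 4.59).

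Several receptors of the TNF receptor superfamily, which costimulate T cells, followed the same direction. Tnfrsf9, which encodes 4-1BB, had 0 to 46 UMIs per cell with a median of 6 in DPCP cells, and 0 to 3 with a median of 0 in control cells. It was 8.07-fold higher (5.14 to 13.4), at 671 CPM in DPCP and 83.1 CPM in control cells. Tnfrsf4, which encodes OX40, had 0 to 40 UMIs per cell in DPCP and 0 to 5 in control cells, with medians of 4 and 1. Its levels were 550 CPM in DPCP and 141 CPM in control cells, a ratio of 3.90 (2.72 to 5.74). Tnfrsf18, which encodes GITR, stood at 395 CPM in DPCP and 150 CPM in control cells, a ratio of 2.64 (1.84 to 3.88). In the 15 DPCP and 12 control cells with at most 3 myeloid or B cell marker UMIs, Tnfrsf18 had 53 UMIs in DPCP and 25 in control cells, a log2 ratio of 0.15. Tnfrsf8, which encodes CD30, was detected in 19 DPCP cells and 1 control cell, at 123 CPM in DPCP and 8.31 CPM in control cells, a ratio of 14.8 with a wide interval (3.91 to 125). Among alpha-beta T cells without Foxp3 the ratios were 15.2 for Tnfrsf9, 3.21 for Tnfrsf4, 1.72 for Tnfrsf18 and 6.07 for Tnfrsf8.

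The inhibitory and costimulatory receptors of the CD28 family differed less. Ctla4 had 0 to 53 UMIs per cell with a median of 7 in DPCP cells, and 0 to 25 with a median of 2 in control cells. It was 2.08-fold higher (1.71 to 2.56), at 1055 CPM in DPCP and 507 CPM in control cells. Among cells with at least 80% of their tag UMIs from their own condition's tag, 20 DPCP and all 27 control cells, its log2 ratio was 0.39, below the 2-fold mark. Icos, an inducible costimulator, stood at 1004 CPM in DPCP and 619 CPM in control cells, a ratio of 1.62 (1.35 to 1.96). Cd28 was lower, at 203 CPM in DPCP and 332 CPM in control cells, a ratio of 0.61 (0.449 to 0.829).

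Of 16 genes listed for regulatory T cell identity, 13 were measured, that is, had at least 30 UMIs over both conditions. Past the fold, which means a ratio of at least 2 either way with an interval that leaves out 1, were 6 higher in DPCP skin and 0 lower, with a median log2 ratio of 0.88. The background was 8.0% of 4774 measured genes past the fold higher and 4.80% lower, with a median log2 ratio of 0.07. The 6 were Il2ra, Ctla4, Tnfrsf4, Tnfrsf18, Tnfrsf9 and Izumo1r, which encodes folate receptor 4 (ratio 2.17, 1.07 to 4.83). Without the cells rich in S100a8 and S100a9, the same list had 6 higher and 1 lower of 13, where the background was 7.41% of 4024 genes higher and 5.19% lower. The one lower was Nrp1, which encodes neuropilin 1, a co-receptor common on thymus-derived regulatory T cells. It stood at 115 CPM in DPCP and 212 CPM in control cells, a ratio of 0.54 (0.363 to 0.806) over all Foxp3 cells, and 0.48 (0.311 to 0.744) once those cells were left out.

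**Figure D2:**
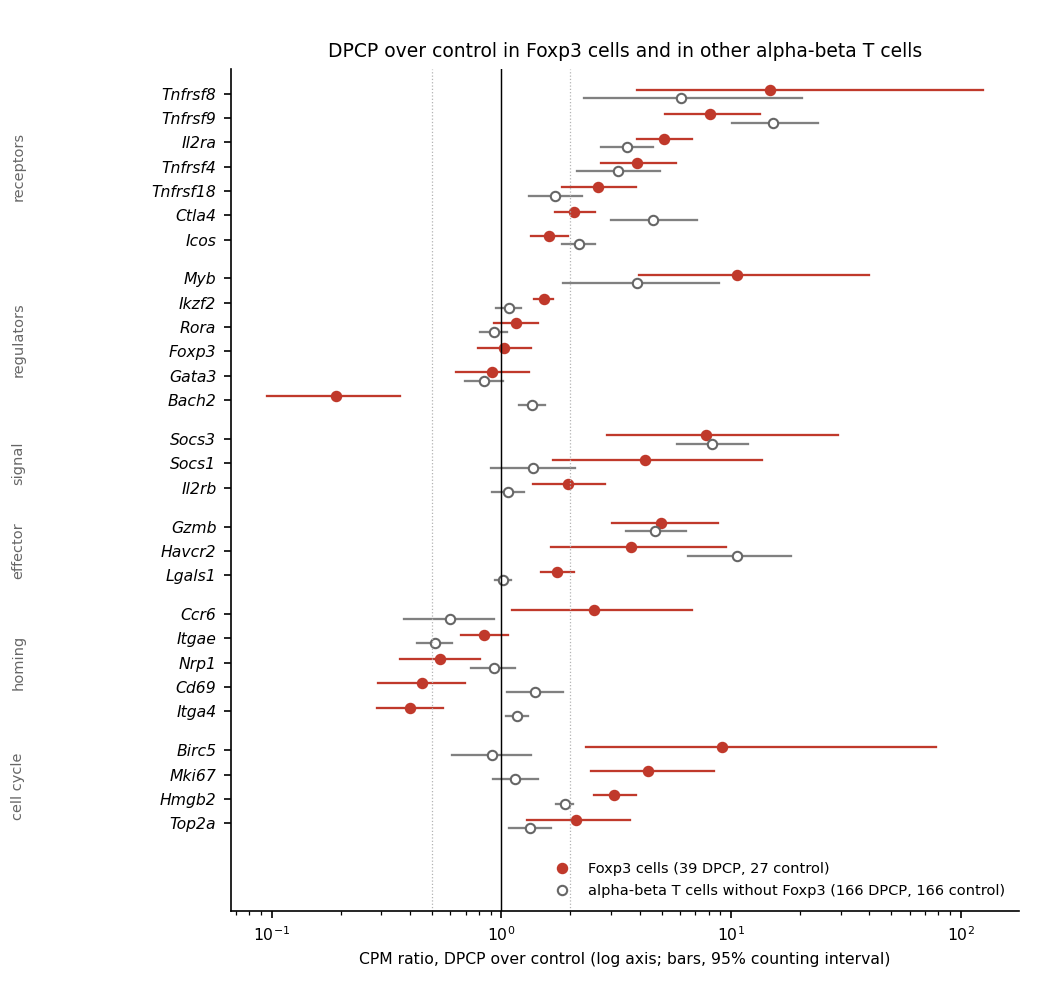
CPM ratio of DPCP over control (horizontal log axis) with its 95% counting interval, for Foxp3 cells (filled points) and alpha-beta T cells without Foxp3 (open points), with dotted lines at 2-fold either way. Il2ra lies at 5.09 in Foxp3 cells and 3.52 in the others, while Bach2 lies at 0.19 and 1.36.

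Thinning each cell to 2000 UMIs, which removes differences in depth, gave the same order for most of these receptors. A Tnfrsf9 UMI then remained in 51.3% of DPCP Foxp3 cells (20 of 39, 34.8% to 67.6%) and 14.8% of control Foxp3 cells (4 of 27, 4.19% to 33.7%), against 71.8% and 40.7% before thinning. For Il2ra the shares were 64.1% in DPCP and 48.1% in control cells, and for Tnfrsf4 51.3% and 33.3%, with intervals that overlapped. Ikzf2 remained in 89.7% of DPCP and 74.1% of control cells, and Icos in 74.4% and 74.1%. In the macrophage set the thinned share with Tnfrsf4 was 0 of 253 DPCP and 0 of 445 control cells. Tnfrsf9 was not so restricted, since it remained in 18.6% of DPCP and 0.674% of control macrophage-set cells, and in 16.4% and 18.7% of epidermal gamma-delta T cells. In control skin this last share was above that of Foxp3 cells.

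**Figure D3:**
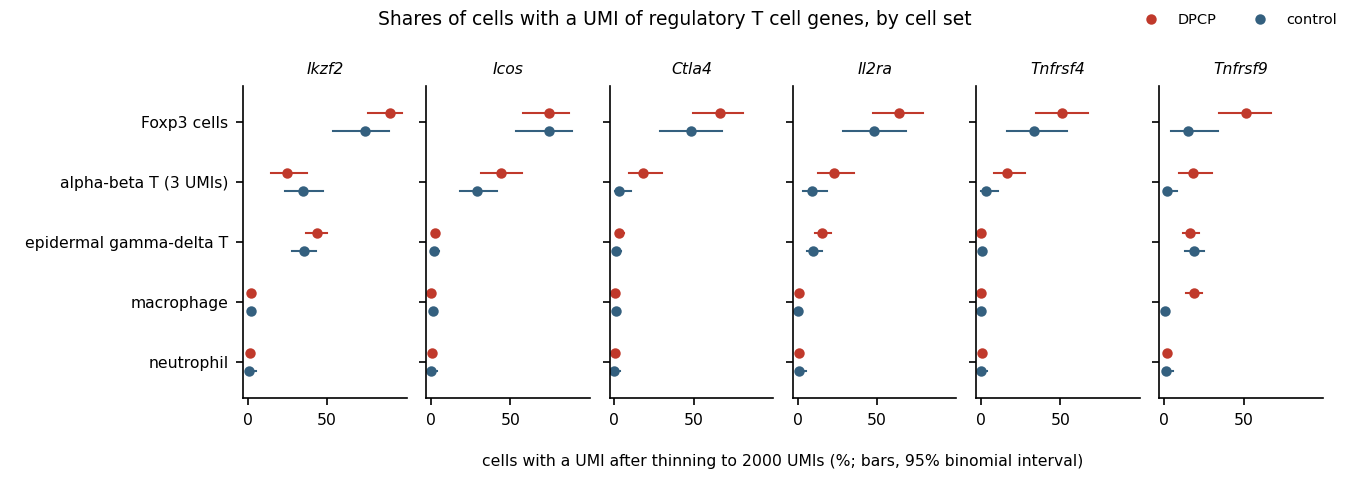
Share of cells with a UMI after thinning to 2000 UMIs (horizontal axis, percent, with 95% binomial intervals) for 6 genes in 5 cell sets, DPCP above control in each. Ikzf2 reaches 89.7% of DPCP and 74.1% of control Foxp3 cells, and Tnfrsf9 is the gene whose share in control skin is higher in gamma-delta T cells (18.7%) than in Foxp3 cells (14.8%).

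The windows upstream of 3 of these receptor genes are shown because the genes were higher together and the windows hold the motifs searched. Each is the 250 bases before a RefSeq transcription start in GRCm38.p6, read 5′ to 3′ on the plus strand, with motif matches in capitals. The motifs were that of NF-kB (GGG and CC with any 5 bases between), TTCNNNGAA for STAT and TGANTCA for AP-1, searched on both strands, and overlapping matches run together. The Il2ra window is chr2:11642542-11642791, the Tnfrsf18 window chr4:156026072-156026321, and the Tnfrsf9 window, at the downstream one of its 2 listed starts, chr4:150927749-150927998.
Il2ra: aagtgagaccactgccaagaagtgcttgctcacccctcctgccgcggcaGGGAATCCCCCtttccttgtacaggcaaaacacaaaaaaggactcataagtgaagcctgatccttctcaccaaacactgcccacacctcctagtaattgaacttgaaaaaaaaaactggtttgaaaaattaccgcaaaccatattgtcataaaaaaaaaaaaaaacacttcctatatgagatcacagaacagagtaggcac
Tnfrsf18: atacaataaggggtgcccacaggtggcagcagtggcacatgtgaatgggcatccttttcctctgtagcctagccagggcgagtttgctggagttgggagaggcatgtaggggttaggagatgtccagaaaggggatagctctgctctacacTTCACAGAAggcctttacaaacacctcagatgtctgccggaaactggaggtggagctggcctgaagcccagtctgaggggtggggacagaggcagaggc
Tnfrsf9: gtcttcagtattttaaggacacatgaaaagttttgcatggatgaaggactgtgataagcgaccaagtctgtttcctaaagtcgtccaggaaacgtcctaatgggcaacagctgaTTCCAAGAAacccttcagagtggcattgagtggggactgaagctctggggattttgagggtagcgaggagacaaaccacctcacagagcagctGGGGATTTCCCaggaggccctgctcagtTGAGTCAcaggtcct
The Il2ra window held 2 overlapping matches of the NF-kB motif, the Tnfrsf18 window 1 match of the STAT motif, and the Tnfrsf9 window 2 overlapping NF-kB matches, 1 STAT match and 1 AP-1 match. The upstream start of Tnfrsf9 and the windows of Ctla4 and Tnfrsf4 held none of the 3. Of 32851 windows of the same length, 45.8% held the NF-kB motif, 7.02% the STAT motif and 6.75% the AP-1 motif. The matches describe these letters and are not binding sites measured here.

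Genes of the interleukin 2 response were partly higher. Of 14 listed genes of this pathway, 12 were measured, with 3 higher and 0 lower past the fold and a median log2 ratio of 0.62. The background was again 8.0% of all measured genes higher and 4.80% lower. Beside Il2ra the higher ones were the feedback inhibitors Socs1 and Socs3. Socs1 was detected in 18 DPCP and 4 control cells, at 88.0 CPM in DPCP and 20.8 CPM in control cells, a ratio of 4.23 (1.68 to 13.7). In the cells with at most 3 myeloid or B cell marker UMIs Socs1 had 10 UMIs in DPCP and 4 in control cells, a log2 ratio of 0.39. Socs3 was detected in 17 DPCP and 3 control cells, at 129 and 16.6 CPM, a ratio of 7.75 (2.88 to 29.3). Il2rb, the receptor's beta chain, stood at 325 CPM in DPCP and 166 CPM in control cells, a ratio of 1.96 (1.38 to 2.84), and Cish, another feedback inhibitor, at 160 and 87.3 CPM, a ratio of 1.83 (1.12 to 3.12). Il2 itself had 1 UMI in DPCP and 0 in control Foxp3 cells.

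Suppressive effectors were higher for a few genes. Of 18 listed, 10 were measured, with 4 higher and 0 lower and a median log2 ratio of 0.84. Among all measured genes 8.0% were higher and 4.80% lower. Gzmb, which encodes granzyme B, was detected in 21 DPCP and 5 control cells, at 352 CPM in DPCP and 70.6 CPM in control cells, a ratio of 4.98 (3.02 to 8.75). In control skin the 3 richest cells held 88.2% of its UMIs, and the log2 ratio of Gzmb was 0.91 in the cells with at most 3 myeloid or B cell marker UMIs. Havcr2, which encodes the inhibitory receptor TIM-3, stood at 106 CPM in DPCP and 29.1 CPM in control cells, a ratio of 3.66 (1.65 to 9.54). Itgb8, the integrin chain with which regulatory T cells activate TGF-beta, was detected in 14 DPCP and 3 control cells, at 160 and 12.5 CPM, a ratio of 12.8 (4.22 to 63.4). The cytokine gene Il10 was detected in 5 DPCP cells and 1 control cell, and Tgfb1 stood at 262 CPM in DPCP and 183 CPM in control cells, a ratio of 1.43 (1.01 to 2.07).

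Over all Foxp3 cells, the regulators of tissue-resident regulatory T cells differed less. Of 16 listed genes, 12 were measured, with 2 higher and 0 lower past the fold and a median log2 ratio of 0.31. Against the background of 8.0% higher and 4.80% lower, these are few genes. Gata3, a transcription factor prominent in skin regulatory T cells, stood at 182 CPM in DPCP and 199 CPM in control cells, a ratio of 0.91 (0.636 to 1.33). Il1rl1, which encodes the interleukin 33 receptor ST2, had a ratio of 0.99 (0.706 to 1.41), and Rora, a nuclear receptor of skin regulatory T cells, 1.16 (0.932 to 1.45). Klrg1, a receptor of differentiated cells, had 0.92 (0.551 to 1.58). In the 9 DPCP and 15 control cells with fewer than 5 S100a8 and S100a9 UMIs, Gata3 had a log2 ratio of -1.01. It had 14 UMIs in these DPCP and 33 in these control cells. Il1rl1 had 44 and 23 UMIs there, a log2 ratio of 1.17. Areg, which encodes the repair factor amphiregulin, was detected in 2 cells of each condition. Jag1, the Notch ligand through which skin regulatory T cells act on hair follicle stem cells, had 2 UMIs in DPCP and 0 in control cells, too few for a ratio. Of the 10 listed genes of the hair follicle niche, 3 were measured and none was past the fold.

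The 2 higher were Nfil3 and Il1r2. Il1r2, which encodes the decoy receptor of interleukin 1, was found in 19 DPCP cells and 1 control cell, at 145 CPM in DPCP and 4.15 CPM in control cells, a ratio of 35.0 (6.07 to 1399.8). In the Foxp3 cells with fewer than 20 S100a8 and S100a9 UMIs, 14 DPCP cells held 51 of its UMIs and control cells held 0. Its ratio was 8.95 against a floor of 3 UMIs over those control cells, with a lower interval limit of 7.02. An Il1r2 UMI was also found in 73.4% of DPCP and 55.1% of control cells of the neutrophil set, 40.6% and 11.7% of the macrophage set, and 56.0% and 11.4% of alpha-beta T cells without Foxp3, where the ratio was 9.52. The part of RNA from other cells in the Il1r2 difference was not tested. Nfil3, a basic leucine zipper transcription factor, had a ratio of 2.34 (1.07 to 5.80) overall. Its ratio was 1.49 (0.561 to 4.62) in cells with fewer than 20 S100a8 and S100a9 UMIs, so its interval took in 1 there.

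Cell cycle genes were higher in DPCP skin. Of 18 listed, 14 were measured, with 9 higher and 0 lower and a median log2 ratio of 1.32, beside 8.0% higher and 4.80% lower of all measured genes. The list median was 0.23 without the 3 deepest cells of each condition and 0.52 in the 9 DPCP and 15 control cells with fewer than 5 S100a8 and S100a9 UMIs. Mki67, the proliferation marker Ki-67, was detected in 12 DPCP and 6 control cells, with 0 to 36 and 0 to 7 UMIs per cell. It stood at 235 CPM in DPCP and 54.0 CPM in control cells, a ratio of 4.36 (2.45 to 8.43). In the cells with fewer than 5 S100a8 and S100a9 UMIs Mki67 had 5 UMIs in each condition, a log2 ratio of 0.23. Birc5, the mitotic protein survivin, was at 75.7 CPM in DPCP and 8.31 CPM in control cells, a ratio of 9.11 (2.35 to 78.0), and Hmgb2, a chromatin protein abundant in cycling cells, at 1366 and 440 CPM, a ratio of 3.10 (2.52 to 3.85). Few cells carried this signal. Of 7 division genes summed (Mki67, Top2a, Ccna2, Ccnb1, Ccnb2, Cdk1 and Birc5), 5 or more UMIs were held by 9 of 39 DPCP cells (23.1%, 11.1% to 39.3%) and 1 of 27 control cells (3.70%, 0.0937% to 19.0%). In alpha-beta T cells without Foxp3 these were 11 of 166 in DPCP and 10 of 166 in control skin, and with at least 3 Cd3 and receptor UMIs 10 of 61 and 6 of 66. The 3 richest cells held 66.8% of Hmgb2 UMIs in DPCP and 67.9% in control skin. Without the 3 deepest cells of each condition, 36 DPCP and 24 control cells, the log2 ratio of Hmgb2 was 0.65.

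Genes of homing and differentiation state differed in both directions. Ccr6, the receptor of the epithelial chemokine CCL20, was detected in 15 DPCP and 7 control cells, at 73.6 CPM in DPCP and 29.1 CPM in control cells, a ratio of 2.53 (1.11 to 6.74). The integrin chain Itga4 was lower, at 143 CPM in DPCP and 357 CPM in control cells, a ratio of 0.40 (0.288 to 0.556). Ccr7, a lymph node homing receptor, had 18 UMIs in DPCP and 23 in control cells, a ratio of 0.39 (0.196 to 0.746), but 20 of the control UMIs lay in 1 cell. Without cells rich in S100a8 and S100a9 its ratio was 3.16 (0.922 to 16.7). Itgae, the CD103 chain that binds epithelial cadherin, had a ratio of 0.84 (0.668 to 1.07) over all Foxp3 cells. In the 15 DPCP and 12 control cells with at most 3 myeloid or B cell marker UMIs, its log2 ratio was -1.82. Those cells held 45 Itgae UMIs in DPCP and 83 in control skin. With fewer than 5 S100a8 and S100a9 UMIs the counts were 43 and 93.

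Bach2, a repressor that holds T cells in a resting state, was found in 7 DPCP and 13 control cells, at 28.6 CPM in DPCP and 150 CPM in control cells, a ratio of 0.19 (0.0954 to 0.364). In alpha-beta T cells without Foxp3 its ratio was 1.36 (1.20 to 1.55). Among the 15 DPCP and 12 control cells with at most 3 myeloid or B cell marker UMIs, Bach2 had 6 UMIs in DPCP and 3 in control cells, a log2 ratio of 0.066. Myb, a factor of effector regulatory T cells in mice, was found in 13 DPCP cells and 1 control cell, a ratio of 10.6 (3.99 to 39.7). Satb1, a chromatin organiser, stood at 413 CPM in DPCP and 95.6 CPM in control cells, a ratio of 4.32 (2.80 to 6.98), with 55.9% and 82.6% of its UMIs in the 3 richest cells. Of 16 listed genes of the early response and heat shock, 14 were measured, with 3 higher (Fosl2, Dusp1 and Hsp90aa1), 1 lower (Fosb) and a median log2 ratio of 0.48. In cells with fewer than 20 S100a8 and S100a9 UMIs, Hspa8 and Hsp90aa1 were higher and Fosb and Jun lower of 12 measured. The background was 8.0% higher and 4.80% lower over all Foxp3 cells, and 7.41% and 5.19% in cells with fewer than 20 such UMIs. Dusp1, a phosphatase, had a ratio of 2.90 (2.13 to 4.03) overall and 1.25 (0.885 to 1.80) in those cells. Fosb, an AP-1 subunit, stood at 10.2 CPM in DPCP and 166 CPM in control cells, a ratio of 0.06 (0.0190 to 0.156). The retention receptor Cd69 was lower, at 88.0 CPM in DPCP and 195 CPM in control cells, a ratio of 0.45 (0.291 to 0.696). With a receptor UMI required and no Trdc UMI, its log2 ratio was -0.70.

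The remaining pathway lists were read against the same background of 8.0% higher and 4.80% lower. Of 16 listed genes of TNF receptors and NF-kB, 14 were measured, with 3 higher, all of them the receptors named above, 0 lower and a median log2 ratio of 0.26. Of the 15 genes of the response to T cell receptor signals, 9 were measured, with 1 higher and 1 lower, Tnfrsf9 and Cd69. None of the 12 measured receptor component genes, 9 helper lineage factors or 12 glycolysis and hypoxia genes was past the fold, with median log2 ratios of 0.15, 0.10 and 0.35. Of 18 measured genes of the cytokine receptor list, 4 were higher (Il1r2, Il1rn, Il4ra and Crlf2) and 2 lower (Il10ra and Ifnar1), with a median log2 ratio of 0.55. In cells with fewer than 20 S100a8 and S100a9 UMIs, 3 of 16 were higher (Il1r2, Tgfbr2 and Crlf2) and 1 lower (Ifnar1), where the background was 7.41% higher and 5.19% lower. Crlf2, a chain of the receptor for thymic stromal lymphopoietin, had a ratio of 2.41 (1.21 to 5.34) overall and 3.51 (1.48 to 10.1) in those cells. Il1rn, the interleukin 1 receptor antagonist, had 11.1 (4.96 to 30.7) and 0.53 (0.121 to 2.29). Il10ra, the interleukin 10 receptor chain, stood at 79.8 CPM in DPCP and 166 CPM in control cells, a ratio of 0.48 (0.301 to 0.765), and had 0.51 (0.304 to 0.856) in those cells. Ifnar1, an interferon receptor chain, had 0.49 (0.271 to 0.893) overall. Effector cytokine transcripts were scarce, and Ifng, Il17a, Il5 and Il13 had no UMI in the Foxp3 cells of either condition.

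By ratio alone, the genes highest in DPCP Foxp3 cells were led by Thbs1 and Ccl3, whose UMIs came mainly from cells rich in S100a8 and S100a9. Thbs1, the matrix protein thrombospondin 1, stood at 370 CPM in DPCP and 8.31 CPM in control cells, a ratio of 44.6 (12.2 to 371), and 79.0% of its DPCP UMIs lay in 3 cells. Ccl3, an inflammatory chemokine, had a ratio of 39.4 (10.7 to 328). Without the cells rich in S100a8 and S100a9 the intervals of Thbs1 (0.656 to 208) and Ccl3 (0.561 to 24.7) took in 1. In the remaining 31 DPCP and 26 control cells the highest named ratios were Ppa1, an inorganic pyrophosphatase, at 22.6 (3.85 to 914), Rad51b, a DNA repair gene, at 18.4 (4.91 to 155), Iigp1, an interferon-inducible GTPase, at 15.8 (2.62 to 644), Tnfrsf8 at 14.5 and Myb at 11.2. For Rad51b, 68.7% of the DPCP UMIs lay in 3 cells, and for Iigp1 93.3%, 28 of 30 UMIs. In alpha-beta T cells without Foxp3 the ratio of Iigp1 was 0.24 (0.104 to 0.503). In Foxp3 cells with at most 3 myeloid or B cell marker UMIs, Rad51b and Iigp1 each had 8 UMIs in DPCP and 0 in control cells. Thbs1 still had 79 UMIs in DPCP and 1 in control cells of this subset, and Ccl3 had 13 and 0. A low count of those markers thus did not mean a low count of Thbs1.

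Among the genes lowest in DPCP Foxp3 cells was Retnla. Retnla, a secreted product of alternatively activated macrophages, was found in nearly every cell of every set. It stood at 483 CPM in DPCP and 5825 CPM in control cells, a ratio of 0.08 (0.0719 to 0.0952). It was detected in 38 of 39 DPCP and 27 of 27 control cells, and 73.1% of its control UMIs lay in 3 cells. Its ratio in alpha-beta T cells without Foxp3 was 0.09, and a Retnla UMI was found in 3953 of 4099 DPCP and 116 of 118 control cells of the neutrophil set. Ear2, Pltp, Fcrls and Cd209a, genes of myeloid cells, had ratios of 0.05, 0.07, 0.07 and 0.05. In the 15 DPCP and 12 control cells with few myeloid or B cell marker UMIs, the log2 ratio was 0.043 for Retnla and 0.65 for Pltp, the last from 6 UMIs in DPCP and 2 in control cells. The part of myeloid RNA in these differences was not tested. Nrp2, a semaphorin receptor, was lower as well, at 6.14 CPM in DPCP and 187 CPM in control cells, a ratio of 0.03 (0.00652 to 0.102), with 84.4% of its control UMIs in 3 cells.

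Foxp3 cells were then set against alpha-beta T cells without Foxp3 within each condition, as a description of 2 sets that the Foxp3 rule separates. Past the fold in the same direction in both conditions were 136 genes higher in Foxp3 cells, 1.81% of 7505 genes, and 137 lower, 1.83%. Of the listed identity genes, 11 of 14 measured were higher in DPCP skin and 9 of 11 in control skin, with 0 lower in either. These counts include Foxp3, which the rule made higher in advance. Over all genes measured in the same contrast, 8.06% of 8061 were higher and 9.09% lower in DPCP skin, and 5.20% of 8185 were higher and 4.61% lower in control skin. Ctla4 stood at 1055 CPM in Foxp3 cells and 63.5 CPM in the other T cells of DPCP skin, a ratio of 16.6 (13.5 to 20.6), and at 507 and 13.9 CPM in control skin, a ratio of 36.4 (24.1 to 56.7). Ikzf2 had ratios of 11.8 in DPCP and 8.31 in control skin, Tnfrsf4 10.5 and 8.66, and Il2ra 9.27 and 6.41. Against the 61 DPCP and 66 control T cells with at least 3 Cd3 and receptor UMIs, these ratios were 7.65 and 16.9 for Ctla4, 5.70 and 3.78 for Ikzf2, 5.66 and 4.94 for Tnfrsf4, and 5.71 and 5.33 for Il2ra.

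The widest ratio held in both conditions belonged to a gene outside the identity list. Msrb3, a methionine sulfoxide reductase, stood at 188 CPM in Foxp3 cells and 6.99 CPM in other T cells of DPCP skin, a ratio of 26.9 (14.7 to 54.0), and at 99.7 and 4.80 CPM in control skin, a ratio of 20.8 (9.58 to 48.7). It was detected in 19 of 39 DPCP and 12 of 27 control Foxp3 cells, against 10 and 5 of 166 other T cells. Lamc1, the laminin gamma 1 chain, had ratios of 7.46 in DPCP and 9.74 in control skin, and Ppm1l, a protein phosphatase, 10.5 and 8.66. Cpm, a carboxypeptidase, had 7.48 and 7.79, and Klrg1 had 4.94 and 5.47. Frmd5, a FERM domain protein, had 14.6 and 106, but 94.9% of its UMIs in control Foxp3 cells lay in 3 cells.

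Of the genes lower in Foxp3 cells in both conditions, Ccl5, a chemokine of effector T cells, had ratios of 0.06 (0.0220 to 0.114) in DPCP and 0.19 (0.0899 to 0.350) in control skin. Cxcr6, a receptor of resident memory T cells, had 0.18 and 0.15, and Klrd1, the CD94 chain of natural killer receptors, 0.19 and 0.16. Tnfrsf1a, the widely expressed TNF receptor 1, had 0.26 and 0.21. The macrophage genes Apoe and C1qb were on this list with ratios of 0.13 and 0.22 in DPCP and 0.16 and 0.22 in control skin. Against T cells with at least 3 Cd3 and receptor UMIs they had 0.32 and 0.59 in DPCP and 0.63 and 0.83 in control skin.

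**Figure D4:**
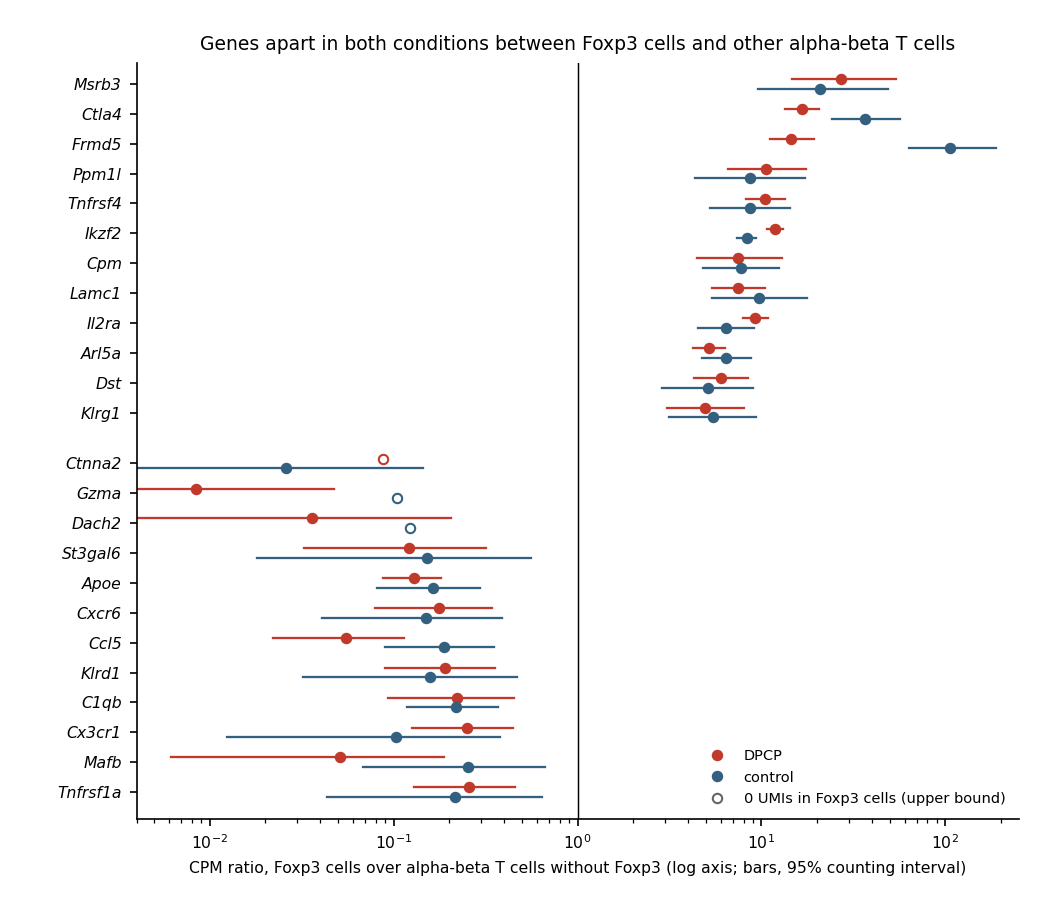
CPM ratio of Foxp3 cells over alpha-beta T cells without Foxp3 (horizontal log axis, with 95% counting intervals cut at the axis limits) in DPCP (upper point) and control skin (lower point) for the 12 highest and 12 lowest genes apart in both conditions. Msrb3 lies at 26.9 in DPCP and 20.8 in control skin. Open points mark genes with 0 UMIs in Foxp3 cells, placed from a floor of 3 UMIs. Their exact 95% upper limits lie above these points, at 0.109 against 0.0871 for Ctnna2 in DPCP skin.

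The same contrast between conditions was made in alpha-beta T cells without Foxp3. There 8.30% of 9454 measured genes were past the fold higher in DPCP skin and 7.08% lower. Of the 10 measured identity genes, 6 were higher and 1 lower, with a median log2 ratio of 1.40. Il2ra, Ctla4, Tnfrsf4 and Tnfrsf9 were past the fold in both sets of cells. Of 13 measured type I interferon genes, 10 were lower in these T cells, with a median log2 ratio of -1.70. In Foxp3 cells only 3 of the list were measured and none was past the fold. Their median log2 ratio was -0.57, and 0.07 in Foxp3 cells with fewer than 20 S100a8 and S100a9 UMIs. The difference between the sets was not tested. Of the alpha-beta T cells, 46.4% in DPCP and 2.41% in control skin had 20 or more UMIs of S100a8 and S100a9.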

How the data were processed

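The authors deposited UMI counts of 32285 genes and 12 tags in 14146 barcodes as whole numbers without normalization. Per the file headers, Cell Ranger 7.0.0 wrote the matrix, while the submitters' processing notes name Cell Ranger 6.1.1, Seurat 4.0.1 and mm10. A barcode's suffix gave its condition through the deposited aggregation and configuration tables. The members, gene lists and tests were chosen with earlier results of these data known. UMIs were summed per condition and set of cells. CPM carries exact Poisson intervals, ratios exact conditional binomial intervals and shares exact binomial (Clopper-Pearson) intervals, at 95%. Where a set held 0 UMIs of a gene, 3 counts were taken in their place as a floor. The exact interval limit can lie beyond a ratio so placed. Fits across genes were not used, since each condition was 1 tagged sample. Ratios are relative to all UMIs of the cells. Named genes had at least 30 summed UMIs, 50 CPM and 5 cells in the higher condition, without mitochondrial, ribosomal protein and rule genes, and the 12 highest and 12 lowest past the fold were taken, over all Foxp3 cells and again over those with fewer than 20 S100a8 and S100a9 UMIs. Genes of the lists are named beside them. Against other T cells, genes had to be past the fold in both conditions, ranked by the ratio nearer to 1. Scrublet, called through scanpy 1.11.5, marked 0 of 7588 DPCP and 3 of 4970 control cells, too few to have worked, so no cell was removed for it. Cells of the neutrophil set had 20 or more S100a8 and S100a9 UMIs and those of the macrophage set at least 10 UMIs of C1qa, C1qb and C1qc, both with 0 Cd3 UMIs; epidermal gamma-delta T cells had a Cd3 UMI and a Trdv4 or Tcrg-V5 UMI. Python 3.11.15, numpy 2.4.6, scipy 1.17.1 and pandas 2.3.3 were used, and edgeR 4.0.16 in R 4.3.3 for TMM scaling. The intervals were tested on simulated Poisson counts only. Those counts do not hold the clumping of UMIs in few cells, so the spread between cells was not tested. Promoter windows are from RefSeq (GRCm38.p6), and each of the 5 receptor genes looked up had at least 1. Some genes are not reported here.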

Additional observations from a re-analysis of the deposited data

Results flagged for a closer look

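For each of 4 genes given here, the ratio of DPCP over control was past 2-fold in opposite directions in Foxp3 cells and in alpha-beta T cells without Foxp3, and the difference was not tested. Ly6c2, a surface antigen of memory T cells and monocytes, had 8.12 in Foxp3 cells, from 33 UMIs in DPCP and 2 in control skin, and 0.18 in the others. Dscam, a cell adhesion gene, had 5.42 in Foxp3 cells, with its UMIs in 7 DPCP and 3 control cells, and 0.32 in the others. Pou2f2, the lymphoid transcription factor OCT2, had 0.44 in Foxp3 cells (90.0 CPM in DPCP and 204 CPM in control skin) and 2.23 in the others. Pecam1, the adhesion molecule CD31, had 0.31 in Foxp3 cells (36.8 CPM in DPCP and 120 CPM in control skin) and 2.40 in the others.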

How the results depend on the processing

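No paired analysis was possible because each condition was 1 tagged sample with no replicate. TMM scaling moved the log2 ratios of DPCP over control in Foxp3 cells by -0.01. Leaving out mitochondrial and ribosomal protein genes moved them by -0.02. TMM totals rose for Foxp3 cells and fell for alpha-beta T cells in both conditions, so ratios between these sets would be lower under it. The count of genes higher (382) became 89 at a minimum of 100 UMIs, 83 in the 9 DPCP and 15 control Foxp3 cells with fewer than 5 S100a8 and S100a9 UMIs, and 101 in the 15 and 12 with at most 3 myeloid or B cell marker UMIs. The count lower (229) became 427 at a minimum of 10 UMIs, 42 at 100, 65 and 60 in those 2 subsets, 131 without the 3 deepest cells per condition and 148 by the mean of each cell's CPM. Without those deepest cells the identity list median was 0.35. Against other T cells, genes higher (136) became 55 at 100 UMIs, 52 and 51 in the 2 subsets and 44 against T cells with at least 3 Cd3 and receptor UMIs. Genes lower (137) became 222 with 2 or more Foxp3 UMIs, and 88, 64, 61 and 78 under the same 4 settings. The Foxp3 share of kept cells became 1.20% in DPCP skin with fewer than 20 S100 UMIs, 1.23% with fewer than 5, and 2.49% in control skin with few myeloid UMIs. The other condition then had 26 Foxp3 cells of 4823, 15 of 1941 and, in DPCP skin, 15 of 2471 kept cells. Of Foxp3 and other alpha-beta T cells it became 25.8%, 27.3% and 25.4% in DPCP skin under these 3 settings, and 39.0% in DPCP and 29.0% in control skin against the stricter T cells. Under the first 3 settings control skin had 26 Foxp3 and 162 other alpha-beta T cells, 15 and 64, and 12 and 49. Thinned to 1000 UMIs, Tnfrsf4 remained in 25.6% of DPCP and 11.1% of control cells, and Il2ra in 18.5% of control cells. Log2 ratios changed sign in the cells with fewer than 5 S100a8 and S100a9 UMIs for Olfm1 (0.64) and Icos (-0.096). Against other T cells in DPCP skin, those of C1qb (0.85) and Frmd5 (-1.41) also changed sign there. With few myeloid UMIs the sign changed for Ikzf2 (-0.12), Nrp1 (0.42), Bach2 (0.066), Pltp (0.65), Retnla (0.043) and Olfm1 (0.066, a floor value from 6 UMIs against 0). In the same cells, against other T cells, it changed for Apoe in control (2.66) and C1qb in DPCP skin (0.062). Il1rl1 also changed sign with fewer than 5 S100 UMIs, from -0.0085 to 1.17. Across the settings Rora ranged from -0.33 to 0.32 and Gata3 from -1.01 to 0.047. Klrg1 against other T cells in DPCP skin kept its sign with fewer than 5 S100 UMIs (0.17). The cause was not tested. The stricter T cells, the 3 deepest cells and a set with 2 of 4 markers were chosen after seeing the data. With 27 control cells, a gene seen in 1 or 2 of them has a ratio with a wide interval.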
